A study of Mus musculus with 3 samples.

Results

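The genes described here are 43 subunits and ATPases of the SWI/SNF, CHD, ISWI and INO80 chromatin remodelling families, chosen by name out of the 50600 genes in the deposited tables, and all 43 were matched by Ensembl identifier. They comprise 25 SWI/SNF subunits (called BAF subunits in mammals), 8 CHD ATPases, 3 genes of the ISWI family, 3 ATPases of the INO80 family and 4 further ATPases of the same superfamily. Expression was measured by RNA sequencing in 3 libraries of primary T cells from C57BL/6NJ mice, which the labels number 2, 3 and 4 as biological replicates of 1 group. No genetic alteration, agent, sex or age is given for any library. A protocol for differentiating CD4+ T cells is named in the labels, and the file headers carry the words Th0 and activated with a time of 0 h. Total RNA is the labelled molecule, although the library protocol named is a poly(A) one. The labels give the 3 libraries 1 donor identifier and name no separate animals. The spread between them may be technical in part, and every p-value below rests on that spread alone.

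Gene counts per library lay between 28340521 and 59698913, and the 43 genes took between 0.893% and 0.925% of them. Levels are given in TPM, the counts of a gene divided by the length of all its merged exons and scaled to a fixed total per library. All 6 T cell markers checked were present, with Cd4 at 1044 ± 24.6 TPM (SD, n = 3). The 6 B cell markers were also detected, at summed levels of 93.7, 114 and 69.5 TPM in replicates 2, 3 and 4. Detected too were 1 of 2 CD8 T cell markers (Cd8b1, 33.6 TPM) and 2 of 5 myeloid markers (Cd68 at 13.3 and Lyz2 at 1.75). So were 1 of 4 NK cell markers (Gzma, 5.73) and 1 of 6 erythroid and platelet markers (Itga2b, 3.50). Of 5 dendritic cell markers 0 were detected. Replicate 2 stood apart in its sex-linked transcripts, with Xist at 151 TPM against 0.221 in replicate 3 and 0.399 in replicate 4, whereas the Y-linked gene Ddx3y was at 0.248, 79.96 and 72.3 TPM. These values go against a single animal as the source of all 3 libraries. The share of either difference in the levels below was not tested, and in bulk RNA fewer cells of a type and less RNA per cell cannot be told apart.

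Chromatin remodellers use the energy of ATP to slide, evict or exchange nucleosomes, and so set which DNA is open to transcription factors. BAF complexes evict and slide nucleosomes at enhancers and promoters. Their subunits are drawn from small families of paralogues, so that a cell type is characterised by the paralogue it places in each position. CHD3 and CHD4 are the ATPases of the NuRD deacetylase complex, ISWI enzymes space nucleosomes evenly, and the INO80 family edits the histone variant H2A.Z. In T cells, the BAF ATPase BRG1 and the NuRD ATPase Mi-2 beta are known for their roles in thymocyte development and in the control of Cd4 and Cd8 transcription.

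Of the 43 genes, 38 reached 1 TPM in all 3 libraries, a threshold passed by 46.1% of the 21764 protein-coding genes. At 5 TPM the numbers were 37 of 43 and 40.1%, the gene lost being Hells. The median over the 43 genes was 50.9 TPM, against 33.4 TPM for the protein-coding genes that reached the threshold. Chd3 was the highest, and Hells the lowest of those detected. The 5 genes below 1 TPM were Smarcd3, Dpf1, Dpf3, Actl6b and Smarca1, each of which has a paralogue with a mean of 33.1 TPM or more. The 19 ATPases included 18 detected genes and summed to between 1957 and 2083 TPM per library, and the other 24 subunits included 20 detected genes and summed to between 1651 and 1697 TPM. When the 38 detected genes were ordered by mean level, 24 of the 37 neighbouring pairs kept their order in every library and 13 did not, among them Smarcc2 and Smarca4, Bptf and Brd9, Chd8 and Chd7, and Srcap and Chd9.

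**Figure D1:**
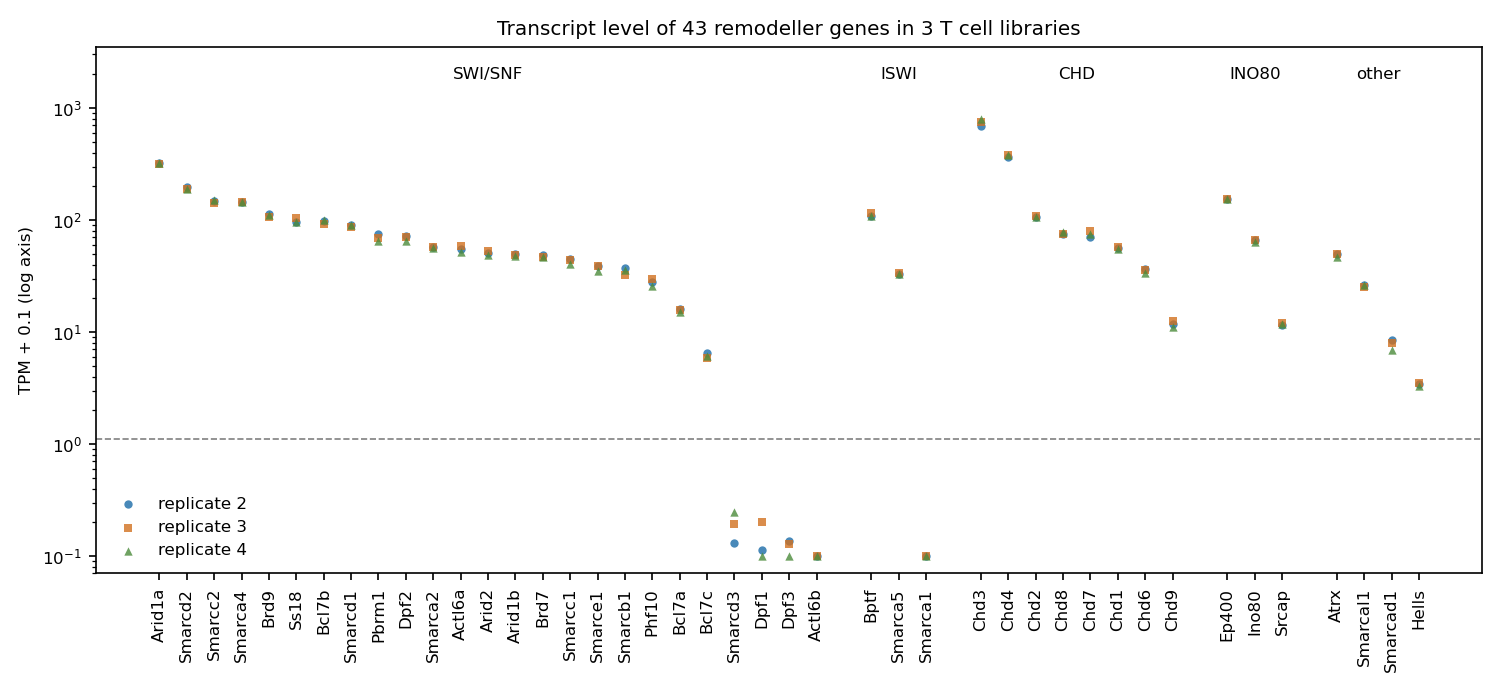
Each point is the TPM plus 0.1 of a gene in a single library, on a log axis, with genes grouped by family and ordered by mean; the dashed line marks 1 TPM plus the same 0.1. The 3 libraries overlap for most genes, and 5 genes lie below the line while 38 lie above it.

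The ATPase of the BAF complex is either SMARCA4 (BRG1) or SMARCA2 (BRM), which are mutually exclusive. Smarca4 (ENSMUSG00000032187.16, chr9:21616169-21704230, plus strand, mm10) was at 143, 146 and 146 TPM in replicates 2, 3 and 4. Smarca2 (ENSMUSG00000024921.17, chr19:26605050-26778322, plus strand) was at 57.8, 57.8 and 56.6 TPM. Smarca4 was therefore the higher in each library, with no overlap between the genes. Their difference was 1.33 ± 0.03 on the scale of log2(TPM + 0.1) (SD, n = 3), and the ratio of pooled counts corrected for length was 2.52 (95% exact binomial interval 2.48 to 2.55). When the signs of the 3 differences were flipped in an exact permutation test (two-sided), p was 0.25, the smallest value that 3 libraries allow, and 0.269 after Benjamini-Hochberg adjustment over the 28 paralogue pairs compared. No pair could therefore pass 0.05, and the intervals cover counting error only. The Smarca4 excess rested on the length used. The deposited merged exons of Smarca2, from GENCODE vM13, have 14269 bases. GENCODE M21 lists 46 transcripts of the gene, the longest of which has 5921 bases. With the longest transcript as the length the ratio was 1.06, and with the longest coding length it was 1.13. Only the length was changed: the counts stayed those over all merged exons, non-coding bases included. Which transcripts of Smarca2 these cells hold was not tested.

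SMARCC1 (BAF155) and SMARCC2 (BAF170) are the scaffold on which BAF assembles. Smarcc2 (ENSMUSG00000025369.15, chr10:128459248-128490482, plus strand) had levels of 149, 141 and 149.8 TPM. Smarcc1 (ENSMUSG00000032481.16, chr9:110117708-110240178, plus strand) had levels of 44.4, 43.4 and 40.4 TPM. Every library thus held more Smarcc2, by 3.37-fold in pooled counts (interval 3.30 to 3.44), and Smarcc2 made up 77.4 ± 1.23% of the summed TPM of the scaffold pair. The excess kept its direction with coding length, where the fold of the means was 2.21. Both other core subunits were lower than Smarcc2 with merged exons, but with coding length Smarcb1 was the higher, at 84.2 against 78.5 TPM. That value divides counts over all 7930 exon bases of Smarcb1 by its 1155 coding bases, so it cannot decide the order. Smarcb1, which anchors BAF to the nucleosome acidic patch, had 36.9, 32.1 and 35.7 TPM and was lowest in replicate 3. Smarce1, an HMG-box DNA-binding subunit, had 38.5, 39.0 and 34.8 TPM and was lowest in replicate 4. These core genes are single-copy positions, and neither has a paralogue among the 43.

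The SMARCD position (BAF60) links BAF to transcription factors, with SMARCD3 known from heart and muscle and SMARCD2 from granulocyte development. Smarcd2 (ENSMUSG00000078619.10, chr11:106263179-106272972, minus strand) was the fourth highest of the 43 genes, at 196, 189 and 189 TPM. Smarcd1 (ENSMUSG00000023018.4, chr15:99702287-99713995, plus strand) was at 90.9, 85.6 and 89.6 TPM. Smarcd2 thus exceeded Smarcd1 in all 3 libraries, by 2.17-fold in pooled counts (interval 2.12 to 2.22). The fold was 2.96 with the longest transcript and 2.38 with coding length. The longest M21 transcript of Smarcd1 has 3307 bases, more than the 3153 exon bases its reads were counted over. The 2.96-fold value thus takes in Smarcd1 bases where no reads were counted. Smarcd3 (ENSMUSG00000028949.13, chr5:24590818-24624411, minus strand) had only 2, 8 and 6 counts. The length-corrected ratio to Smarcd3 was 2319 for Smarcd2 (interval 1428 to 4058) and 1068 for Smarcd1 (657 to 1868). With coding length the difference of Smarcd1 from Smarcd3 was 8.29 on the log2(TPM + 0.1) scale, against 8.92. Of 5 muscle and heart markers, none was detected, and Myh6, Ckm and Mb had 0 counts in every library.

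ACTL6A and ACTL6B (BAF53A and BAF53B) are actin-related subunits, and the exchange of the former for the latter accompanies the exit of neural progenitors from division. Actl6a (ENSMUSG00000027671.14, chr3:32706298-32726973, plus strand) was at 55.1, 58.4 and 52.0 TPM. Actl6b (ENSMUSG00000029712.14, chr5:137553517-137569582, plus strand) had 0 counts in every library, which allows a level of up to 0.0186 TPM when 3 counts are taken as the limit over the pooled libraries. In pooled counts corrected for length, Actl6a was at least 3005-fold higher against that limit, and the lower end of the exact binomial interval used for the other pairs was 2444. The DPF position (BAF45) has neuronal members too. Dpf2 (ENSMUSG00000024826.14, chr19:5896516-5913010, minus strand), a histone-reading subunit present in most tissues, was at 71.2, 69.7 and 65.1 TPM. Dpf1, by contrast, had 1, 9 and 0 counts and Dpf3 had 2, 2 and 0 counts. Dpf2 exceeded Dpf1 by a length-corrected ratio of 1406 (interval 764 to 2933) and Dpf3 by 2763 (1079 to 10141), whereas Dpf1 and Dpf3 did not keep an order across libraries (difference 0.13 ± 0.46 on the log2 scale, exact permutation p = 1). On the log2(TPM + 0.1) scale, coding length raised the differences of Dpf2 from Dpf1 and Dpf3 from 9.03 and 9.16 to 9.78 and 9.997, and the longest transcript raised that of Actl6a from Actl6b from 9.11 to 9.73. Among 5 neuron markers only the tubulin gene Tubb3 was detected, at 2.08 ± 0.418 TPM, and Snap25 and Syt1 had 0 counts.

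ISWI showed the same kind of split. SMARCA5 (SNF2H) is the broadly expressed ISWI ATPase, and SMARCA1 (SNF2L) is best known from neurons and gonads. Smarca5 (ENSMUSG00000031715.14, chr8:80698507-80739497, minus strand) was at 32.7, 33.8 and 32.8 TPM. The X-linked Smarca1 (ENSMUSG00000031099.16, chrX:47809368-47892974, minus strand) had 0 counts in every library, which allows up to 0.0130 TPM by the same limit. In pooled counts Smarca5 was at least 2560-fold higher against it, and the lower end of the exact binomial interval was 2081. BPTF, the large subunit of the ISWI complex NURF, reads trimethylated H3K4. Bptf was at 109.0, 115 and 108 TPM, above Smarca5 in each library.

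The detected and undetected members of these positions could be set beside their start-site sequences. RefSeq windows on GRCm38.p6, running from 250 bases before to 50 bases after a start site, were given for 35 of the 43 genes in 40 windows. The windows of 3 pairs are printed because in each pair one gene was detected and its paralogue was not. They run 5′ to 3′ on the gene's strand, and capitals mark CpG dinucleotides.

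Smarcd2, chr11:106267583-106267882, minus strand: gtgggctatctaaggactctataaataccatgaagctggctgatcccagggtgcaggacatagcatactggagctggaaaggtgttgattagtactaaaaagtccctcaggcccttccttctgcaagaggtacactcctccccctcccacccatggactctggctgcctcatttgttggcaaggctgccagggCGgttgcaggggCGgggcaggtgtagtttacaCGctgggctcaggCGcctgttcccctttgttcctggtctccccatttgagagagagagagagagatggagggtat
Smarcd3, chr5:24601953-24602252, minus strand: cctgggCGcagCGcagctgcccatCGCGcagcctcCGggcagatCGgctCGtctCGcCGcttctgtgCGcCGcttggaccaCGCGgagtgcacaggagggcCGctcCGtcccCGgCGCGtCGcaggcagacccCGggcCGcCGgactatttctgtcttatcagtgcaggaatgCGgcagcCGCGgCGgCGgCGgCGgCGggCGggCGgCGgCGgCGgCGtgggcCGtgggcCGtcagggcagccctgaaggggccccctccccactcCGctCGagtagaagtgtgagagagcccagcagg
Actl6a, chr3:32708296-32708595, plus strand: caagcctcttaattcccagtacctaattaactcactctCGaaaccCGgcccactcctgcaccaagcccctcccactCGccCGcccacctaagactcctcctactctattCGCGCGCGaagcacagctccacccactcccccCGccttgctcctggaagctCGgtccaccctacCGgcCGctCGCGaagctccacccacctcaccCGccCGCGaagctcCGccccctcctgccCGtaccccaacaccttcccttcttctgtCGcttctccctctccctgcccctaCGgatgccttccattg
Actl6b, chr5:137553296-137553595, plus strand: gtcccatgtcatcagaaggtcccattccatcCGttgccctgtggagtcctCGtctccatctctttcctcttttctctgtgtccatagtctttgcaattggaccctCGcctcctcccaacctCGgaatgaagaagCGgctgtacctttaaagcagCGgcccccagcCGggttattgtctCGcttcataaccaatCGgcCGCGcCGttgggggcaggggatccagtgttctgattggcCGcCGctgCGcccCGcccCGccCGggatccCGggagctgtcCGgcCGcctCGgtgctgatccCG
Smarca5, chr8:80739410-80739709, minus strand: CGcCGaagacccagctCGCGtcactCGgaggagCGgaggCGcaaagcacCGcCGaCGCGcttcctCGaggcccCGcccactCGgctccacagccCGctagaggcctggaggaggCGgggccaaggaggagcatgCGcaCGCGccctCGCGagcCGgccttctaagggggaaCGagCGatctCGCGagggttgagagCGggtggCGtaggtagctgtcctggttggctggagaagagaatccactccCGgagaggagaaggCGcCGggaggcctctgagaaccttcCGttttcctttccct
Smarca1, chrX:47892564-47892863, minus strand: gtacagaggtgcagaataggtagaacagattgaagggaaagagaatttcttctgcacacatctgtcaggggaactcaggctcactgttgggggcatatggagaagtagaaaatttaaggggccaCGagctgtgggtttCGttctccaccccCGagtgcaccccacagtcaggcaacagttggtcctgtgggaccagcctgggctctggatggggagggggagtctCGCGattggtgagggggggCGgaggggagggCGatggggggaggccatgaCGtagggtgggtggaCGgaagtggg

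CpG dinucleotides numbered 4 in the window of Smarcd2 and 40 in that of its undetected paralogue Smarcd3. They numbered 21 for Actl6a and 23 for the undetected Actl6b, and 32 for Smarca5 against 9 for the undetected Smarca1. CpG number thus did not order the 3 pairs by whether the gene was detected. For Smarcd2, Smarcd3, Actl6a and Smarca1 the window lies inside the gene as deposited, so it holds a start given by RefSeq that is not the outermost one. Over the 40 windows the median was 30 CpG, and 75% had 20 or more, compared with a median of 7 and 26.5% in all 32851 windows of the same length. All windows take in genes detected here or not, and no share over detected genes alone was computed. The 5 windows of undetected genes held between 9 and 40, with Dpf1 at 39 and Dpf3 at 17. The highest number, 62, was in Phf10 and the lowest, 1, in the second window of Chd9. GGGCGG, the GC box bound by SP and KLF factors, was found on either strand in 87.5% of the windows and in 35.7% of all windows. CCGGAAG, an ETS core, was in 5 of 40 windows, of Smarca2, Smarcc1, Chd8 and both of Brd9 (12.5% against 8.86%). ATGGCGG, part of the YY1 motif, was in the windows of Bptf, Ino80, Phf10 and Smarcd1 (10% against 4.05%). GCATGCG, part of the NRF1 motif, was in those of Smarca4, Smarca5, Smarcb1 and Smarcc1 (10% against 3.58%). TATAAA was in that of Smarcd2 alone (2.5% against 13.6%). Matches of different motifs were counted separately and may overlap. Each motif but TATAAA contains a CpG, so these shares are not separate from CpG number.

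Assemblies of BAF are told apart by further subunits. Canonical BAF carries ARID1A or ARID1B with a DPF protein, PBAF carries ARID2, PBRM1, BRD7 and PHF10, and the non-canonical form carries BRD9. Arid1a (ENSMUSG00000007880.16, chr4:133679008-133756769, minus strand), the most abundant BAF gene, was at 324, 317 and 326 TPM. Arid1b (ENSMUSG00000069729.13, chr17:4994332-5347656, plus strand) was at 49.5, 48.2 and 47.2 TPM. Arid1a took 87.0 ± 0.337% of the pair, the ratio of pooled counts was 6.63 (interval 6.54 to 6.72), and the share stayed between 85.9% and 89.4% under the other lengths tried. The 4 PBAF genes each lay below Arid1a and summed to 203, 198 and 187 TPM, fewest in replicate 4. By mean level with merged exons, Pbrm1 (69.9 TPM) and Arid2 (50.9) were above Arid1b (48.3), and Brd7 (47.4) and Phf10 (27.7) were below it. Pbrm1, with its row of bromodomains, had 75.3, 69.1 and 65.2 TPM. Arid2 had 50.8, 53.0 and 49.0 TPM, which is 6.25-fold below Arid1a in pooled counts (interval 6.16 to 6.34). Phf10, which holds the DPF position in PBAF, had 27.9, 29.3 and 25.8 TPM, and Dpf2 exceeded it 2.47-fold (2.39 to 2.54), or 3.86-fold with the longest transcript and 4.02-fold with coding length.

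BRD9 and BRD7 are related bromodomain proteins, of the non-canonical complex and of PBAF respectively. Brd9 (ENSMUSG00000057649.5, chr13:73937838-73960894, plus strand) was at 113, 106 and 109.8 TPM. Brd7 (ENSMUSG00000031660.13, chr8:88331039-88362194, minus strand) was at 49.1, 46.5 and 46.8 TPM. With merged exons Brd9 was the higher in every library, 2.30-fold in pooled counts (interval 2.24 to 2.37). Reads of Brd9 were counted over its deposited length of 2406 bases, while GENCODE M21 gives a longest transcript of 4569 bases. With that transcript Brd7 was 1.19-fold higher. The longer length takes in bases where no reads of Brd9 were counted, so it cannot decide the order. With coding length Brd9 was 1.15-fold higher.

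SS18 and the BCL7 proteins are accessory subunits. Ss18 had 96.7, 105 and 94.97 TPM, highest in replicate 3. Its paralogue Ss18l1, the neuronal CREST, was detected at 13.4 ± 0.51 TPM. Bcl7b (ENSMUSG00000029681.12, chr5:135168283-135181855, plus strand) was at 97.4, 92.3 and 100.3 TPM. Bcl7a (ENSMUSG00000029438.9, chr5:123343834-123374992, plus strand), named for its rearrangement in a lymphoma, was at 15.96, 15.5 and 14.9 TPM. Bcl7c was at 6.42, 5.76 and 6.03 TPM, so the order Bcl7b, Bcl7a, Bcl7c held in all 3 libraries. Shares of the summed level were 81.8%, 13.1% and 5.13% in that order. The middle value depended on length, since the merged exons of Bcl7a have 9490 bases and its coding sequence 630: with coding length Bcl7a had 34.4% and Bcl7b 56.6%. The log2 difference of Bcl7b from Bcl7c was 3.97 with merged exons and 2.66 with coding length, and that of Bcl7a from Bcl7c was 1.34 with merged exons, 2.13 with the longest transcript and 1.94 with coding length. The order of the 3 genes was the same under each of the 4 lengths.

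**Figure D2:**
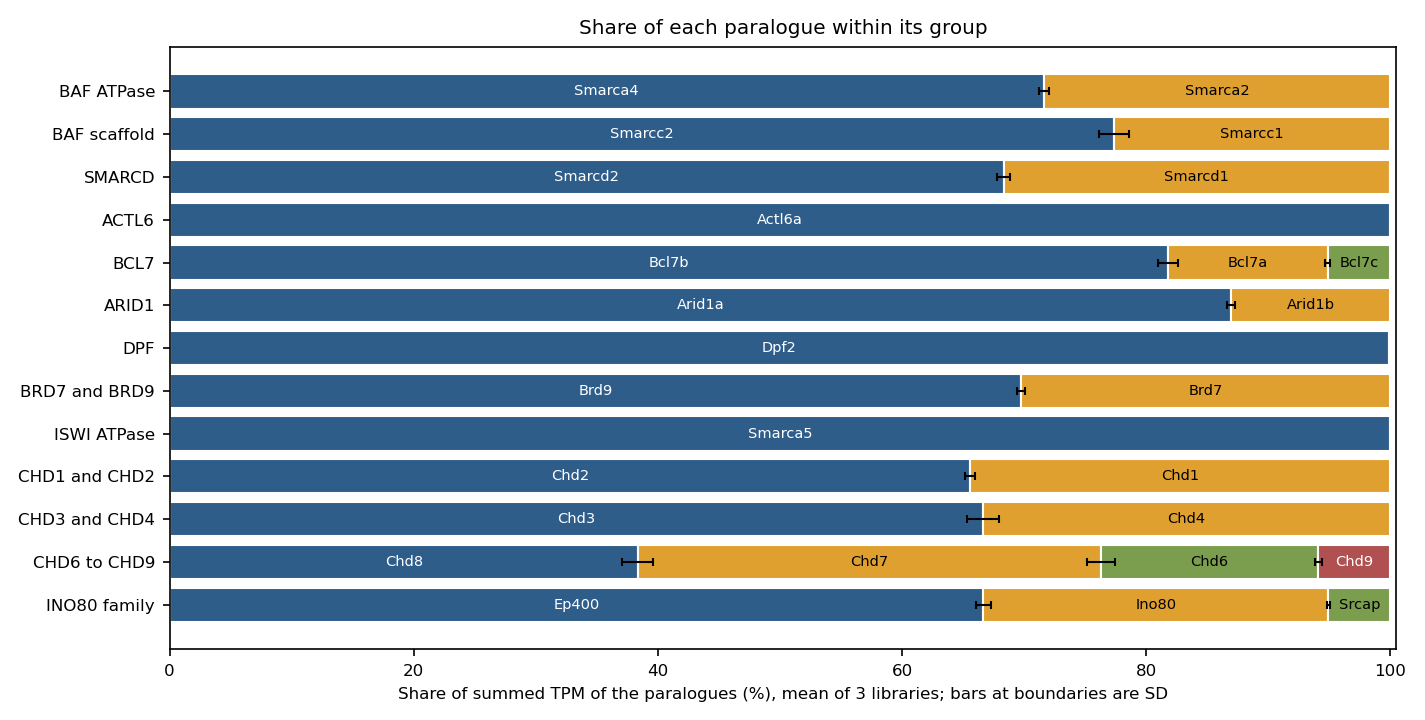
Bars give the percent share of each paralogue in the summed TPM of its group. They are means of 3 libraries, with the SD at each boundary. Some groups, such as Brd7 with Brd9, belong to different complexes, so a share there is not a share of a single position. Actl6a, Dpf2 and Smarca5 fill their positions, and Chd7 and Chd8 have nearly equal shares of 37.95% and 38.35%.

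The CHD ATPases included the highest genes of the 43. Chd3 (ENSMUSG00000018474.17, chr11:69343273-69369406, minus strand) was at 686, 750.2 and 801 TPM, which is the 98.6th percentile of detected protein-coding genes on its mean of 746 ± 57.4. Chd4 (ENSMUSG00000063870.12, chr6:125095981-125130591, plus strand), the Mi-2 beta ATPase, was at 364, 378 and 377 TPM. Both genes were lowest in replicate 2, the library with Xist. Chd3 exceeded Chd4 in all 3 libraries, with a ratio of pooled counts of 1.98 (interval 1.97 to 2.00) and a share of 66.6 ± 1.32%. The difference of Chd4 minus Chd3 was -0.997 ± 0.0856 on the log2 scale, and -1.04 without replicate 2. The 4 lengths moved that share only between 66.0% and 66.6%.

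CHD1 and CHD2 carry paired chromodomains, and CHD1 binds trimethylated H3K4. Chd2 (ENSMUSG00000078671.11, chr7:73426638-73541830, minus strand) was at 105, 109 and 106 TPM. Chd1 (ENSMUSG00000023852.13, chr17:15704967-17394898, plus strand) was at 55.8, 57.7 and 54.5 TPM. The span of Chd1 as deposited takes in other genes, among them Rgmb and Zfp97, without sharing same-strand exon bases with them. Its merged exons have 11917 bases, against 7916 in its longest M21 transcript. Chd2 was 1.90-fold higher than Chd1 in pooled counts (interval 1.87 to 1.92), and 1.99-fold higher with the longest transcript. Its level is a minimum in 1 respect: 2628 of its 14300 exon bases, 18.4%, are shared on the same strand with the non-coding gene 1810026B05Rik, itself at 42.7 ± 2.73 TPM and named after its values were seen. No option for reads that overlap several genes is set in the file headers, so featureCounts leaves those reads uncounted. Over unshared bases alone Chd2 came to 129 TPM and 2.33 times Chd1.

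CHD6 to CHD9 form a further subfamily, in which CHD7 is mutated in CHARGE syndrome and CHD8 in autism. Chd8 (ENSMUSG00000053754.13, chr14:52198151-52257723, minus strand) was at 75.4, 74.8 and 77.5 TPM. Chd7 (ENSMUSG00000041235.11, chr4:8690406-8867659, plus strand) was at 70.2, 79.8 and 75.6 TPM. These values overlapped: Chd7 was the higher in replicate 3 and the lower in replicates 2 and 4, with a difference of -0.0152 ± 0.1 on the log2 scale (exact permutation p = 0.75) and a pooled ratio of 1.00 (interval 0.986 to 1.01). Without replicate 2 the difference was 0.029. With the longest transcript and with coding length Chd8 was 1.42-fold and 1.36-fold higher, so near-equal levels were seen with merged exons and with unshared exon bases only. Chd6 had 36.4, 35.8 and 33.5 TPM, about 2.13-fold below both in pooled counts, and 1.4-fold below Chd7 with coding length. Chd9 had 11.7, 12.3 and 11.0 TPM and was the lowest of the CHD genes. Chd7 exceeded Chd9 6.38-fold in pooled counts (interval 6.24 to 6.52), or 3.67-fold with coding length.

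The INO80 family was led by Ep400, the ATPase of the TIP60 acetyltransferase complex. Ep400 (ENSMUSG00000029505.17, chr5:110664373-110770717, minus strand) was at 153, 153 and 154 TPM. Its coefficient of variation, 0.417%, was the smallest of the 38 detected genes, and it was not compared with counting error. Ino80 (ENSMUSG00000034154.15, chr2:119373042-119477687, minus strand) was at 66.6, 65.7 and 62.9 TPM, and Ep400 exceeded it 2.34-fold (interval 2.30 to 2.38). Srcap (ENSMUSG00000053877.12, chr7:127511983-127561219, plus strand), which deposits H2A.Z, was at 11.5, 11.9 and 11.7 TPM. Ep400 thus appeared 13.1-fold higher than Srcap (interval 12.8 to 13.4) and Ino80 5.58-fold higher (5.43 to 5.74). Srcap is the gene whose level was most affected by shared exons. Of its 15783 exon bases, 9738 (61.7%) are also exons of Gm42715, a gene annotated over it on the same strand, and reads there are left uncounted. Gm42715 itself had 872 counts over the 3 libraries. Over its unshared bases Srcap came to 30.1 TPM, Ino80 was 2.13-fold higher and Ep400 5.05-fold higher. In that reckoning Srcap held 12.2% of the family's summed level in place of 5.09%, and the order of the 3 genes was unchanged.

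Of the 4 other ATPases, Atrx was the highest. This X-linked gene, whose product places histone H3.3 at repeats together with DAXX, was at 49.3, 50.1 and 46.5 TPM, so the library with Xist lay between the others. Smarcal1, an annealing helicase of stalled replication forks, was at 25.96, 25.4 and 26.3 TPM. Smarcad1 had 8.38, 7.87 and 6.82 TPM, lowest in replicate 4. Hells (LSH), which supports DNA methylation at repeats and is typical of dividing lymphocytes, had 3.36, 3.38 and 3.22 TPM. Of the 6 cell cycle genes checked, 5 were detected, also at low levels, from 2.01 TPM for Mki67 to 5.47 TPM for Rrm2, and Ccnb1 was at 0.573 TPM.

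Over the 28 paralogue pairs, 26 had the same sign in all 3 libraries, 24 of them differed by over 2-fold, and the median absolute difference was 2.12 on the log2 scale. The same counts were not made for pairs of unrelated genes, so they are not shown to be particular to paralogues. The pairs with mixed signs were Dpf1 with Dpf3 and Chd7 with Chd8. With all 4 definitions of length, 27 pairs kept the sign of their mean and 19 kept a difference of over 2-fold. The sole change of sign was Brd9 with Brd7, under a longest transcript that exceeds the exon bases over which Brd9 was counted. A difference moved by over 1.5-fold in 6 pairs with the longest transcript, in 12 with coding length and in 2 with unshared bases. Those 2 were both pairs of Srcap.

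**Figure D3:**
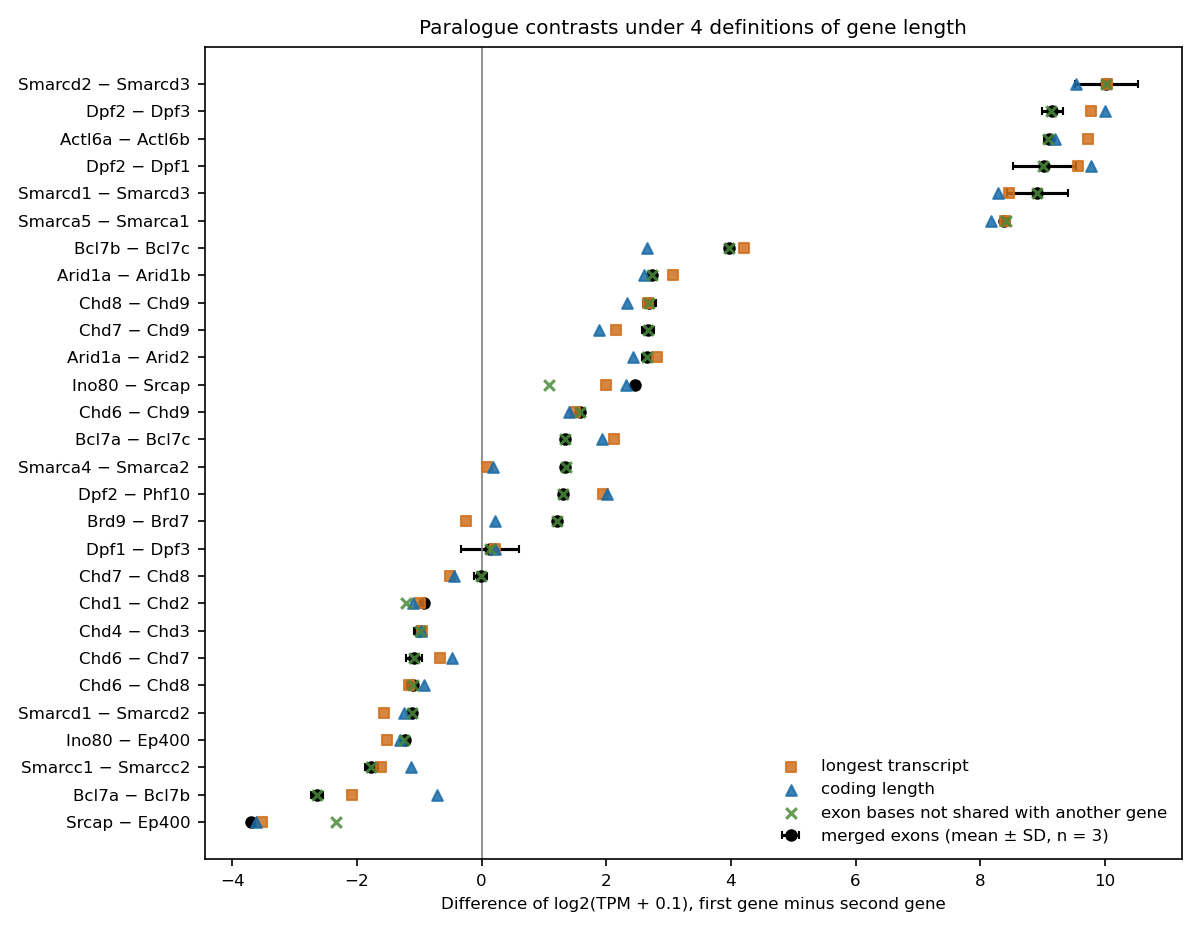
Points give the difference of log2(TPM + 0.1) between the genes of each of 28 pairs, first minus second, under 4 lengths; black points are means over 3 libraries with SD. Most coloured points lie on the same side of 0 as the black point, and among the widest gaps are those of Bcl7a and Bcl7b, Brd9 and Brd7, and the Srcap pairs.

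None of the 38 detected genes, all of which averaged at least 10 counts, passed the test for variation among libraries beyond that of genes of like abundance. The edgeR goodness of fit test of a single-group negative binomial model called 72 of 13498 genes at an adjusted p of 0.05, which is 0.533%, and 0 of the 38. At an unadjusted p of 0.05 it called 554 genes, 4.1%, and again 0 of the 38. The count in the set was also 0 with DESeq2 size factors (0.533% of all genes called), with no filter on counts (0.272%), with the minimum raised to 50 counts (0.509%), with a common dispersion (2.31%), and without replicate 2 (0.26%), 3 (0.294%) or 4 (0.333%). Chd3 had the smallest p of the set, 0.223 (adjusted p = 1.00 in edgeR), with 10.64, 10.79 and 10.91 log2 CPM (counts scaled by library size) in replicates 2, 3 and 4 and so a range of 0.27. Smarcad1 followed with a range of 0.25 and was lowest in replicate 4, and Chd7 with a range of 0.21 was lowest in replicate 2. The median range over the 38 genes was 0.084, and it was 0.19 over all genes tested, which were not matched to the 38 for abundance. The library farthest from the other 2 was replicate 2 for 10 genes, replicate 3 for 15 and replicate 4 for 13. Over all 13498 genes tested the numbers were 4545, 3856 and 5097. The coefficient of variation of TPM had a median of 3.31% over the detected genes of the set and 5.46% over detected protein-coding genes, a comparison not adjusted for abundance.

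**Figure D4:**
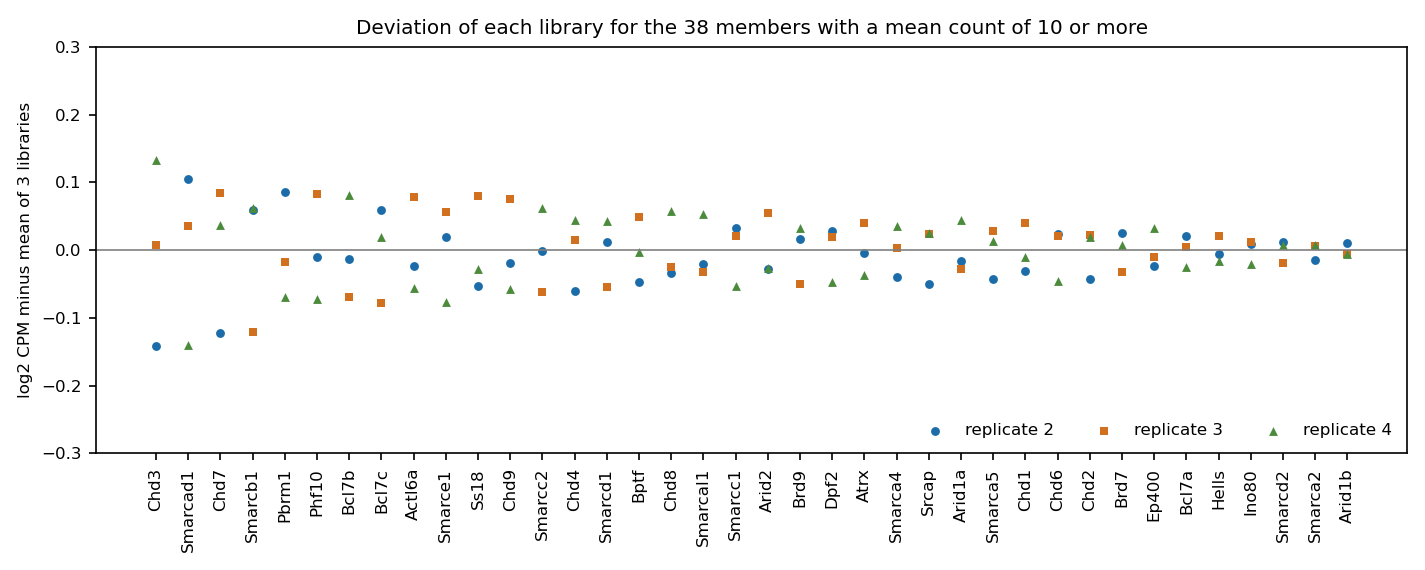
Points give the deviation of log2 CPM (counts scaled by library size) in each library from the mean of 3 libraries, for the 38 detected genes, ordered by range. Chd3 at the left spans 0.27, and the genes to the right of the middle all stay within 0.1 of their mean.

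Other genes of the same complexes, with 11 further SNF2 family ATPases, were taken from 7 lists that hold 68 genes. Of these, 65 reached 1 TPM in all 3 libraries and 63 reached 5 TPM. Over all protein-coding genes the shares were 46.1% and 40.1%. NuRD partners were detected in 12 of 12 cases with a median of 108 TPM. Mta2 was their highest at 329 ± 9.39 TPM, with the methyl-CpG domain protein Mbd3 at 228 ± 9.92. Mta3 at 49.5 and Cdk2ap1 at 19.6 TPM were their lowest. Among ISWI partners 7 of 8 were detected, with a median of 31.4 TPM. Baz2a, the TIP5 subunit of the nucleolar complex NoRC, was at 189 ± 0.683 TPM and Baz1b at 87.2, both above the ATPase Smarca5. Baz2b was at 10.7 TPM, and Cecr2, which pairs with SMARCA1 or SMARCA5, was at 0.043 TPM.

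All 13 INO80 partners were detected (median 54.4 TPM), from the zinc finger protein gene Yy1 at 113 and Mcrs1 at 95.3 down to Ino80e at 34.9 and the deubiquitinase gene Uchl5 at 28.8 TPM. All 15 partners of SRCAP and TIP60 were detected as well (median 43.3 TPM), with Epc1 at 106 and the histone reader Yeats4 at 103 ± 16.7 TPM the highest and Znhit1 at 23.8 and Mbtd1 at 14.1 TPM the lowest. Yeats4 had 106, 117 and 84.4 TPM, lowest in replicate 4. It had the only unadjusted p under 0.05 among the 67 partners tested in edgeR, 0.0306 with an adjusted p of 1.00, and 0 of the 67 passed after adjustment. The 4 other BAF genes were all detected, with Actb at 8363 ± 240 TPM, although most actin is not in BAF. Bicra and Bicral, which mark the non-canonical complex beside BRD9, were at 82.0 and 57.1 TPM. The 5 partners of ATRX and HELLS were detected, led by the H3.3 gene H3f3b at 353 ± 42.7 and Daxx at 175 TPM, with Cdca7l at 31.7 and Cdca7, which recruits HELLS, at 13.0 TPM. Among 11 further SNF2 family ATPases 9 were detected, from Btaf1 at 52.4 and Chd1l at 51.5 TPM down to the recombination gene Rad54l at 0.357 and Chd5 at 0.063 TPM, the latter a neuronal paralogue of Chd3 and Chd4.

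**Figure D5:**
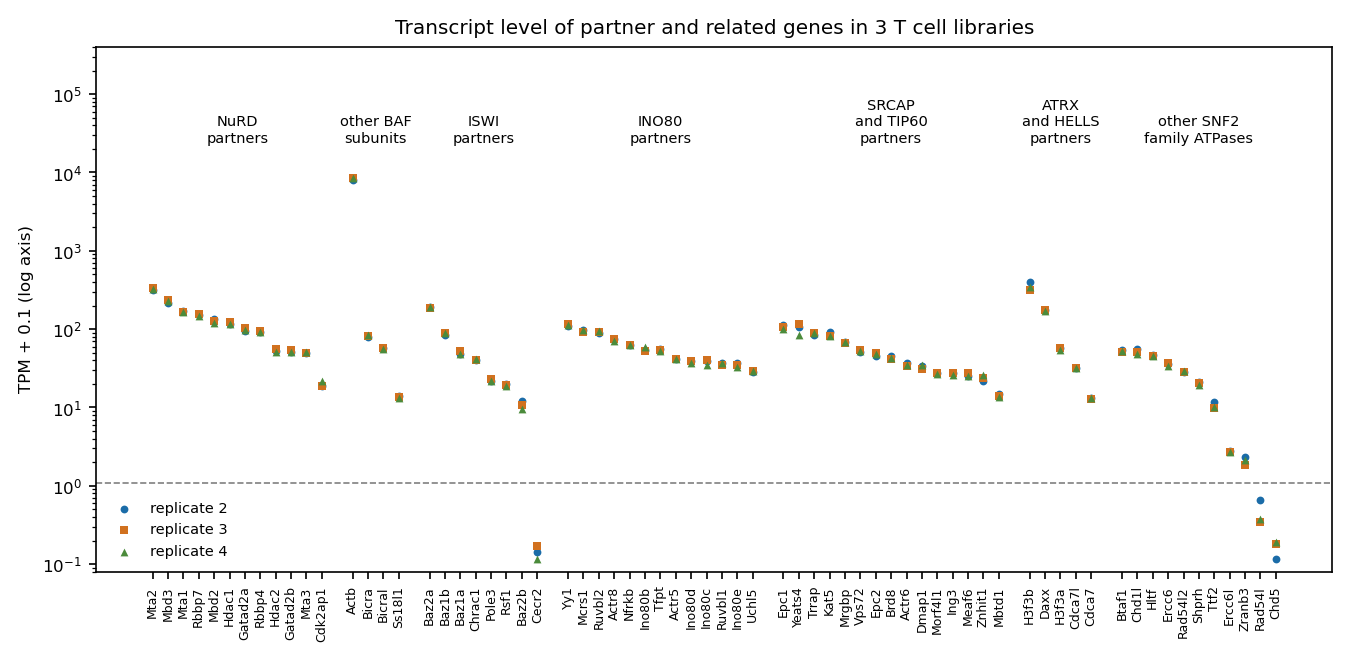
Each point is the TPM plus 0.1 of a partner or related gene in a single library, on a log axis, grouped by list. The dashed line marks 1 TPM plus the same 0.1. Only Cecr2, Rad54l and Chd5 lie below the line, and Actb is the highest.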

How the data were processed

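RNA was sequenced in 3 libraries of 1 group. Per the file headers, the authors counted read pairs per gene with featureCounts 1.4.6-p4 on mm10 with GENCODE vM13, as reverse-stranded exons grouped by gene with both ends mapped, and deposited raw counts and merged exon lengths. The aligner's version is not given in the sources used here. Reads that overlap several genes on a strand, or align to several places, are not counted, since the headers set no option for them.

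TPM were computed from counts and length. Symbols came from the given name table, which matched 50376 of 50600 genes. Other lengths (longest transcript, longest coding sequence, exon bases not shared with another gene on the same strand) came from GENCODE M21 and the deposited exons. The deposited counts were kept with each length, so genes with many non-coding exon bases gain most by coding length. Paralogues were compared within each library as differences of log2(TPM + 0.1), with an exact sign-flip permutation test. Variation was tested on counts with edgeR 4.0.16 (TMM, trended dispersion, mean count of 10 or more, Benjamini-Hochberg at 0.05) in R 4.3.3, after a test on simulated data, with DESeq2 1.42.0 size factors as an alternative. The limit for 0 counts was 3 counts. Other steps used Python 3.11.15 with pandas 2.3.3, numpy 2.4.6 and scipy 1.17.1, and figures used matplotlib 3.10.9. Promoter windows are from RefSeq.

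Gene sets, pairs and lists were chosen with earlier results of these data known. Named genes are the 43, the 2 highest and 2 lowest of each partner list, the markers, and pseudogenes that bear a symbol of the 43. Genes sharing exons, sex-linked genes and motif letters were added after values were seen.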

Additional observations from a re-analysis of the deposited data

Results flagged for a closer look

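Counts were assigned to 2 pseudogenes of the set, which no comparison used, above the 3 counts that a gene with 0 counts allows. This is a lower bar than the 1 TPM in every library at which genes were called detected: Smarce1-ps1 passed that threshold and Smarca5-ps did not. Smarce1-ps1, a processed pseudogene on chromosome 8, had 66 counts over the 3 libraries, as 16, 36 and 14 in replicates 2, 3 and 4, and levels of 1.13, 2.01 and 1.63 TPM. Smarca5-ps, on chromosome 4, had 29 counts, as 6, 16 and 7, and a mean of 0.238 ± 0.0842 TPM. Both are low beside Smarce1 at 37.4 and Smarca5 at 33.1 TPM. Reads that align equally well to gene and pseudogene would be left uncounted, so the levels of all 4 are uncertain by that amount, which was not tested.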

How the results depend on the processing

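The number of detected genes in the set stayed at 38 with a threshold of 0.5 TPM, with coding length, with unshared bases and without any 1 replicate, and was 37 at 5 TPM. The number that varied among libraries stayed at 0 under each count minimum, scaling and dispersion and without any 1 replicate, while calls over all genes ranged from 35 to 312. Of the paralogue differences, 3 changed sign. Brd9 minus Brd7 was -0.25 with the longest transcript, which for Brd9 is longer than the exons its reads were counted over. Dpf1 minus Dpf3 lay between -0.13 and 0.32 when 1 replicate was left out, and Chd7 minus Chd8 between -0.0695 and 0.029. Pairs with the same sign in every library numbered 26 or 27 without 1 replicate. The median level of the 43 genes was 55.0 TPM over protein-coding genes of 200 bases or more alone, 55.5 TPM with the longest transcript and 46.0 TPM with coding length, against 50.9. Unshared exon bases and the M21 lengths were added after the data were seen, the latter in place of coding lengths from RefSeq proteins, which were not run. No paired analysis was possible because there was 1 group, with no replicate numbers shared between groups; the paralogue differences were already taken within each library. The number of libraries limits the paralogue tests, and counts under 10 limit Smarcd3, Dpf1 and Dpf3 in each library.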
